A study of Arabidopsis thaliana with 24 samples.

Results

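The heat response of wild-type Arabidopsis thaliana was described over all expressed genes, from 3 libraries of Col-0 seedlings kept at 39 °C for 60 min and 3 libraries of Col-0 seedlings kept at 23 °C. These 6 libraries were chosen by genotype and treatment from the 24 libraries of the study, which holds 8 groups of 3. Each library was made from RNA of whole seedlings, 9 days old, that had grown on 1/2 MS medium with sucrose. The other groups used below for comparison were exa1-1 mutant seedlings at 39 °C and at 23 °C, and Col-0 seedlings given 200 mM NaCl or kept without it for 60 min. Of 32833 genes in the count table, 20972 passed the filter on low counts in the heat series and were tested. The labels do not say whether the libraries of a group came from separately grown plants, so p-values measure the spread between these libraries, which may be technical.

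When a plant cell is heated, proteins unfold and the chaperones that bind them are drawn away from the heat shock factors, transcription factors that they otherwise hold inactive. The freed factors form trimers, bind heat shock elements in promoters and switch on genes of heat shock proteins. Small heat shock proteins hold unfolded proteins in solution, the HSP70 machinery with its J-domain partners refolds them, and HSP101 pulls them out of aggregates. Unfolded proteins in the endoplasmic reticulum (ER) set off a separate response, the unfolded protein response, through membrane-bound sensors such as BZIP28 and IRE1.

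At 39 °C, 16791 genes passed the test (edgeR quasi-likelihood F test, adjusted p under 0.05), which is 80.1% of those tested. Of these, 8063 genes were higher at 39 °C (38.4% of all tested) and 8728 were lower (41.6%). With a log2 fold change of at least 1 as well, 3599 genes were higher (17.2%) and 5143 were lower (24.5%), and 616 and 673 genes passed a log2 fold change of 3 in the same order. The values of the 3 libraries at 39 °C did not overlap those of the 3 libraries at 23 °C in 17155 genes (81.8%). A call alone therefore says little about a gene. Sizes are given below, and the counts of a group's members are to be read against these background shares.

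The direction of a modest change depended on how the libraries were scaled to each other. TMM, the main scaling, sets libraries level on the bulk of genes and gave the 39 °C libraries a mean factor of 0.735, against 1.35 for the 23 °C libraries. With total counts in its place, the log2 fold changes were lower by a median of 0.88, so that 3049 genes were called higher and 15202 lower. In that scaling 2855 genes called higher with TMM were called lower, while no gene called with a log2 fold change of at least 1 in TMM changed sign. A nearly even shift of 0.88 could not carry a change of 1 across 0, so this is no test of the larger changes. The relative log expression scaling (RLE) gave 8180 genes higher and 8595 lower, the upper quartile gave 6250 and 10780, and the mean of 5 reference genes gave 4903 and 12410. Under all 5 scalings, 3049 genes were called higher (14.5% of those tested) and 8595 were called lower (41.0%), and 5147 genes called with TMM were not called alike in all of them. Besides total counts, the reference genes (-0.49) and the upper quartile (-0.275) shifted log2 fold changes down from TMM, and RLE barely moved them (0.018). The higher calls are thus those of total counts and the lower calls those of RLE, so the rule hardly tests a lower call. Fold changes below are from TMM, counts of members "in all 5 scalings" follow this stricter rule, and levels are CPM, the counts of a gene per 1e6 counts of the TMM-scaled library.

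**Figure D1:**
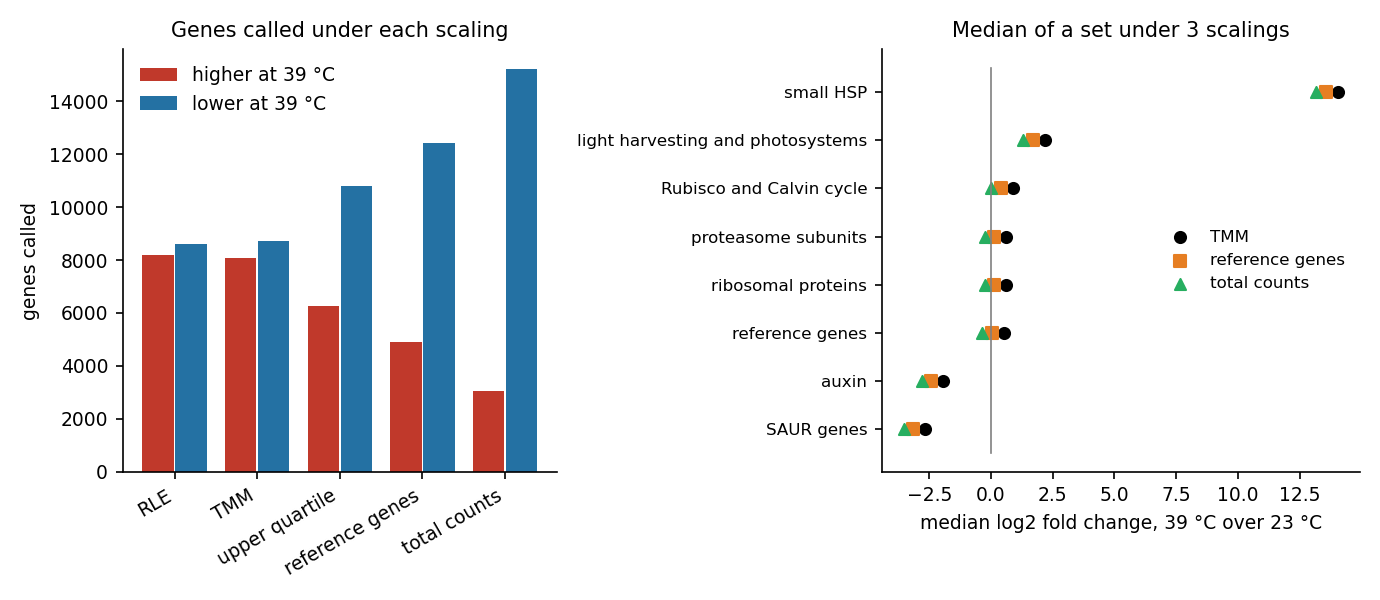
Left, genes called higher (red) or lower (blue) at 39 °C against 23 °C under 5 scalings of the libraries. Right, the median log2 fold change of 8 gene sets with TMM (circles), the 5 reference genes (squares) and total counts (triangles): the bars for higher genes shrink to 3049 with total counts, and the medians of ribosomal proteins and proteasome subunits lie on either side of 0 depending on the scaling.

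The libraries held 17877885 to 19359429 counts at 39 °C and 17685639 to 20992263 counts at 23 °C. At 39 °C, 22745 to 23187 genes had a count, against 23624 to 23857 genes at 23 °C, and the 10 most abundant genes took 11.0 to 11.7% of the counts, against 4.22 to 4.63%. Genes of the 3 chaperone lists (small HSPs, HSP60 to HSP100, and co-chaperones) took 18.497 to 19.149% of a library's counts at 39 °C and 0.548 to 0.609% at 23 °C. The small HSPs alone took 7.26 to 7.69% at 39 °C and 0.0045 to 0.0051% at 23 °C. Per unit of gene length, as a share of summed FPKM, small HSPs made up 12.4 to 12.9% at 39 °C and 0.0074 to 0.0083% at 23 °C. The second library at 39 °C was the highest of its group in the share of mitochondrion-encoded genes (0.125%, against 0.0854 and 0.0843%) and of long non-coding RNAs (0.383%, against 0.269 and 0.231%).

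**Figure D2:**
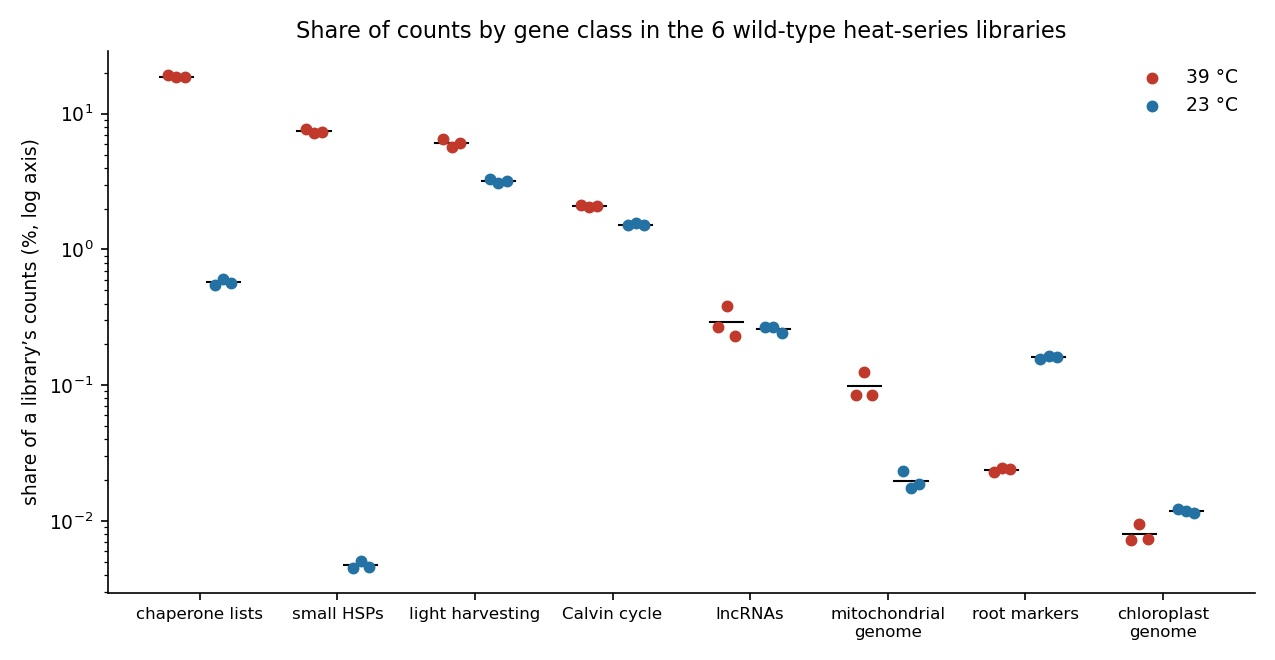
Share of each library's counts (percent, log axis) taken by 8 gene classes, with 3 libraries at 39 °C (red) left of 3 libraries at 23 °C (blue) and a bar at each mean. The chaperone lists make up 18.497 to 19.149% of counts at 39 °C, while root marker genes, mostly PYK10, lie at 0.0228 to 0.0244% at 39 °C and at 0.157 to 0.164% at 23 °C.

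Of 21 heat shock factor genes, 19 were tested, and 13 were higher at 39 °C and 1 was lower (10 and 1 in all 5 scalings), with HSFA6A and HSFA9 left out by the filter on low counts. HSFA2, the factor that prolongs the response during sustained heat, had 6050, 5641 and 6031 CPM at 39 °C, against 0.939, 1.01 and 0.705 CPM at 23 °C (log2 fold change 12.70 ± 0.15, SE, n = 3 each; adjusted p = 8.92e-23). HSFA7B had 247, 207 and 231 CPM at 39 °C, where 9244 counts were summed over the libraries, against 3 counts over all libraries at 23 °C, a ratio of 6040 with a counting interval of 2070 to 29300 (95%, counting error only). Both genes were at or near the floor in every library at 23 °C and high in every library at 39 °C. The class B factors HSFB1 and HSFB2B, which act as repressors, rose as well. HSFB1 had 1207, 1163 and 1141 CPM at 39 °C and 49.3, 43.0 and 45.7 CPM at 23 °C (log2 4.67 ± 0.06, adjusted p = 3e-20), and HSFB2B had a log2 fold change of 4.57 ± 0.06. HSFA7A (log2 4.12 ± 0.08) and HSFA3 (log2 4.48 ± 0.11) also rose. HSFB4, known for its part in root stem cells, was the only member called lower, with 4.00, 6.16 and 6.65 CPM at 39 °C and 9.73, 9.66 and 9.13 CPM at 23 °C (log2 -0.75 ± 0.23, adjusted p = 0.000157).

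Heat shock elements were searched in the promoters of 20705 tested genes, from 250 bases before to 50 after the annotated start. An element was taken as 3 inverted units in a row, GAANNTTCNNGAA or TTCNNGAANNTTC, on either strand. The 5 promoters shown hold an element and belong to genes with large increases: those of the small HSP gene HSP17.4, of HSFA2 and HSFA7B, of DREB2A (a heat- and drought-induced transcription factor) and of GOLS1 (galactinol synthase). Each runs 5′ to 3′ along the gene's strand up to the base before its annotated start, from RefSeq's TAIR10.1, with the elements in capitals.
HSP17.4, chr3:16984842-16985091, minus strand: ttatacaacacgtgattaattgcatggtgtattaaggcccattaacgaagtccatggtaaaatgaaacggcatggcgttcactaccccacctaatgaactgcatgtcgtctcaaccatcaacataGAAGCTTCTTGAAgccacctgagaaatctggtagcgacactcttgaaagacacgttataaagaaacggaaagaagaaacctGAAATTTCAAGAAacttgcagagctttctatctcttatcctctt
HSFA2, chr2:11135374-11135623, plus strand: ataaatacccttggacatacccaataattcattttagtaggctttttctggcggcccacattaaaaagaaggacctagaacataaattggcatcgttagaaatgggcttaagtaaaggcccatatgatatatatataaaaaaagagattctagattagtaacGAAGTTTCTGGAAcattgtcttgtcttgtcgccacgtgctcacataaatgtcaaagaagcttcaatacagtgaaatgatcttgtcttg
HSFA7B, chr3:23398986-23399235, plus strand: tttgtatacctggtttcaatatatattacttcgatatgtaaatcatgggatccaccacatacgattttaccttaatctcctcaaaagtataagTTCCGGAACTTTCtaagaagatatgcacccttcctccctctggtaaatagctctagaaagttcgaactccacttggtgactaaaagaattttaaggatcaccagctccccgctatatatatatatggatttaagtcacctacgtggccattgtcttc
DREB2A, chr5:1601955-1602204, plus strand: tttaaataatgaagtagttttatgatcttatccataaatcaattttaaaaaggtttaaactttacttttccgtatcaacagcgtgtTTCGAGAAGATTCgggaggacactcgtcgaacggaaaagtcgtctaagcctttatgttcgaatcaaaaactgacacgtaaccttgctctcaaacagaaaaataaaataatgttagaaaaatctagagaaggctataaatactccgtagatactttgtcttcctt
GOLS1, chr2:19370479-19370728, minus strand: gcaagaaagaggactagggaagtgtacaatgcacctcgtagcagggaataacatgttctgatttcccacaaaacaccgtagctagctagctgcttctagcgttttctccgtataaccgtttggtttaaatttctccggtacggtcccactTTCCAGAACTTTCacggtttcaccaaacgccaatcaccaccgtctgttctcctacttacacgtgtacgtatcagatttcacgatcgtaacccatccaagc
The element nearest the 5′ end began 125 bases before the annotated start in HSP17.4, which held 2 elements. It began 88 bases before it in HSFA2, 100 in GOLS1, 157 in HSFA7B and 164 in DREB2A.

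The share of promoters with such an element was higher the larger the increase of the gene. It was 12.7% (18 of 142) among genes with a log2 fold change of at least 6, 3.3% (14 of 424) from 3 to 6, and 0.990% (29 of 2933) from 1 to 3. Among genes called higher by less it was 0.360%, among genes not called 0.480%, and among genes lower by a log2 of 3 or more 0.150% (1 of 658). Over all tested genes it was 0.6% (125 genes). Most chaperone promoters held no such element: it was found in 2 of 18 small HSP promoters and 3 of 29 of the HSP60 to HSP100 list. The co-chaperones held it in 1 of 15 and the heat shock factors in 3 of 19. Outside the chaperone, heat shock factor and ER lists, 10 of 110 genes with a log2 fold change of at least 6 still held an element (9.09%). With 2 units in place of 3 (GAANNTTC or TTCNNGAA), which can be part of a longer element, the share was 40.1% for genes with a log2 fold change of at least 6 and 19.3% for all genes. A match is a string of letters and not a bound site, and an annotated start can lie away from the start used, so a promoter with no match in this window says nothing about the factors.

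**Figure D3:**
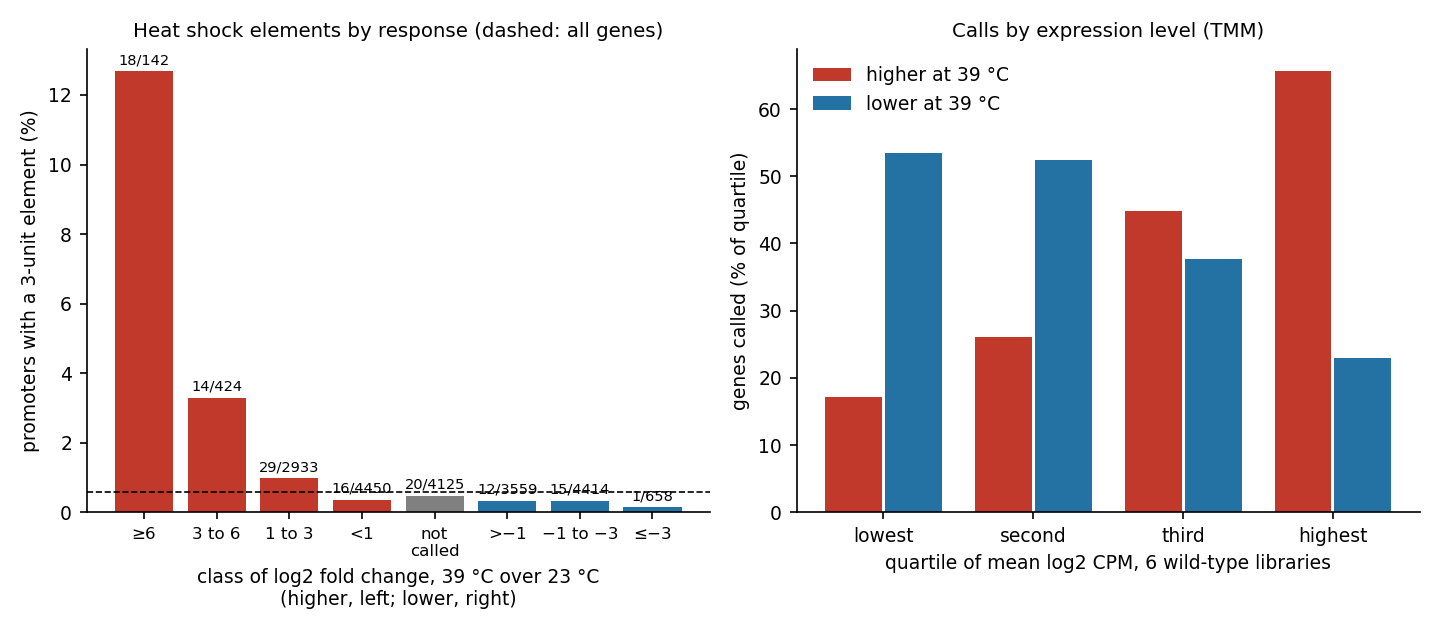
Left, percent of promoters holding a 3-unit heat shock element by class of log2 fold change, with the number of promoters above each bar and all tested genes as a dashed line. Right, percent of genes called higher (red) or lower (blue) at 39 °C in each quartile of mean expression: the element share peaks at 12.7% in the class of log2 6 or more, and calls turn from 53.4% lower in the lowest quartile to 65.6% higher in the highest.

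Small heat shock proteins had the highest median change of the 40 gene lists. Of 18 members, 16 rose and none fell (16 in all 5 scalings), with a median log2 fold change of 14.06 beside -0.07 over all genes, and AT4G21870 and AT5G47600 were not called. HSP18.2 had 11140, 9770 and 10390 CPM at 39 °C, against 0.427, 0.181 and 0.211 CPM at 23 °C (log2 15.23 ± 0.29, adjusted p = 1.07e-22). HSP17.4 had 12100, 10950 and 11150 CPM at 39 °C and 0.854, 0.651 and 0.740 CPM at 23 °C (log2 13.89 ± 0.11), and AT1G59860 had 6925, 5754 and 6101 CPM at 39 °C and 0.427, 0.290 and 0.247 CPM at 23 °C (log2 14.25 ± 0.20). Each of these genes was near the floor of detection at 23 °C in all 3 libraries. AT1G52560 (log2 13.10 ± 0.34), AT1G54050 (log2 10.28 ± 0.06) and AT2G19310 (log2 7.23 ± 0.06) rose too. HSP22.0, an ER-resident member, had 250464 counts over the 39 °C libraries and 3 over the 23 °C libraries. Class I small HSPs are close copies of each other, so how reads divide among them is uncertain.

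All 29 tested members of the HSP60, HSP70, HSP90 and HSP100 list were called higher, 26 of them in all 5 scalings, with a median log2 fold change of 3.47. HSP101, the disaggregase on which acquired heat tolerance depends, had 16440, 15160 and 16040 CPM at 39 °C and 14.8, 12.8 and 12.7 CPM at 23 °C (log2 10.21 ± 0.08, adjusted p = 1.83e-22). HSP70, a cytosolic chaperone, had 25540, 22090 and 24530 CPM at 39 °C, against 28.9, 25.4 and 28.4 CPM at 23 °C (log2 9.77 ± 0.09). Every 39 °C library lay far above every 23 °C library, and the libraries of a temperature lay close together. HSP90.1, the inducible cytosolic HSP90, changed by a log2 of 10.07 ± 0.05, HSP70B by 10.99 ± 0.08 and HSP70T-2 by 9.25 ± 0.08. MTHSC70-2, a mitochondrial HSP70, had 3381, 3171 and 3348 CPM at 39 °C and 27.6, 28.8 and 26.6 CPM at 23 °C (log2 6.90 ± 0.04). The members called with TMM but not alike in all 5 scalings were HSP60-2, CPN60B and HSP70-14.

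**Figure D4:**
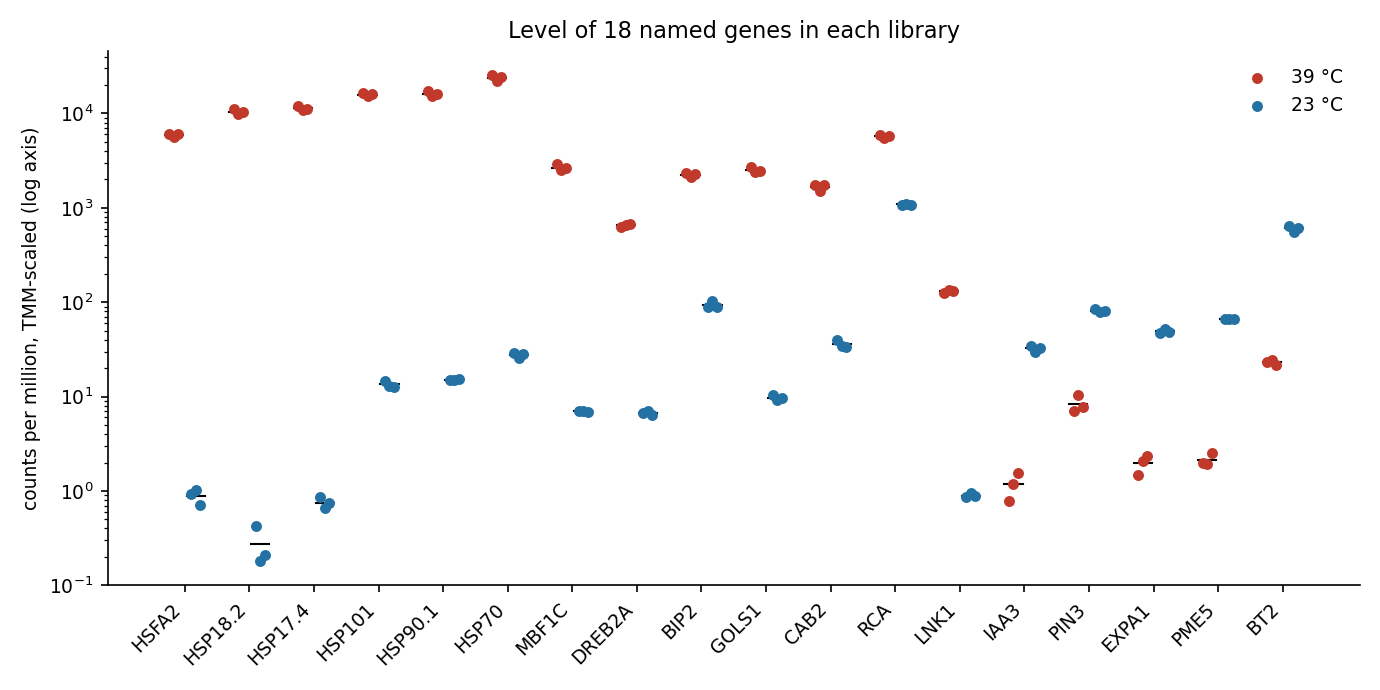
Level of 18 named genes in each of the 3 libraries at 39 °C (red) and, to their right, the 3 libraries at 23 °C (blue), in TMM-scaled CPM on a log axis, with a bar at each mean. Chaperone genes lie far higher at 39 °C than at 23 °C (HSP70 at 22090 to 25540 against 25.4 to 28.9 CPM), and IAA3, PIN3, EXPA1, PME5 and BT2 lie lower at 39 °C with no overlap.

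Co-chaperones rose with the chaperones: 15 of 15 were called higher (12 in all 5 scalings), with a median log2 fold change of 3.79. MBF1C, a coactivator needed for heat tolerance, had 2887, 2496 and 2637 CPM at 39 °C and 7.00, 7.06 and 6.94 CPM at 23 °C (log2 8.58 ± 0.06, adjusted p = 8.92e-23). ROF2, an immunophilin that binds HSP90, had 5351, 5051 and 5131 CPM at 39 °C, against 5.16, 5.75 and 5.60 CPM at 23 °C (log2 9.87 ± 0.05). HOP3, which bridges HSP70 and HSP90, rose by a log2 of 8.05 ± 0.02, BAG6 by 8.57 ± 0.09, FES1A, an HSP70 nucleotide exchange factor, by 7.19 ± 0.09, and ROF1 by 5.30 ± 0.09. The wider J-domain family was less uniform: of 118 tested members, 71 were higher and 31 lower (34 and 31 in all 5 scalings). AT1G71000 had 646, 689 and 651 CPM at 39 °C and 0 counts in all 3 libraries at 23 °C, which makes it at least 17500-fold higher (floor of 3 counts over the group), and AT2G20560 had a log2 fold change of 8.31 ± 0.16.

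In the ER unfolded protein response, 22 of 25 genes rose and 1 fell (16 and 1 in all 5 scalings). BIP2, the ER-resident HSP70, had 2359, 2102 and 2292 CPM at 39 °C and 89.5, 102.8 and 90.0 CPM at 23 °C (log2 4.58 ± 0.08, adjusted p = 4.51e-20). BIP1 is a near-identical copy, so the division of reads between the pair is uncertain, and its log2 fold change was 4.16 ± 0.08. ERDJ3A, an ER J-domain protein, had 525, 491 and 494 CPM at 39 °C and 1.58, 2.35 and 1.94 CPM at 23 °C (log2 7.99 ± 0.16). The sensor BZIP28 (log2 2.95 ± 0.03), the lectin chaperone CNX1 (log2 3.42 ± 0.04) and the cell death suppressor BI1 (log2 3.65 ± 0.09) rose too, with no overlap between temperatures. The sensor IRE1B was the member called lower, with 11.0, 9.75 and 13.2 CPM at 39 °C and 15.0, 17.5 and 16.9 CPM at 23 °C (log2 -0.54 ± 0.14, adjusted p = 9.62e-05).

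Genes that clear damaged proteins also moved up, by less. In the ubiquitin and autophagy list, 12 of 15 genes rose and none fell (8 in all 5 scalings). The polyubiquitin gene UBQ14 had 2098, 1659 and 1974 CPM at 39 °C and 98.5, 97.5 and 96.8 CPM at 23 °C (log2 4.29 ± 0.10), and reads of polyubiquitin genes can be shared with their copies. CDC48A, the segregase that extracts ubiquitylated proteins, had a log2 fold change of 1.81 ± 0.04, the autophagy gene ATG18A of 2.79 ± 0.06 and the aggregate receptor NBR1 of 1.15 ± 0.07. Of 42 proteasome subunits, 37 were higher and 2 lower with TMM, but only 7 and 2 in all 5 scalings, and with total counts 24 were lower. FUS5, the largest increase of this family, was higher by a log2 of 3.14 ± 0.04. It was counted by its description as a proteasome component (PCI) domain protein, which does not make it a proteasome subunit.

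All 4 tested genes of the DREB2 and CBF list rose in all 5 scalings. The filter on low counts left out CBF1 (17 counts at 39 °C and 5 at 23 °C) and CBF2 (12 and 11). DREB2A had 633, 657 and 682 CPM at 39 °C and 6.70, 6.98 and 6.34 CPM at 23 °C (log2 6.62 ± 0.05, adjusted p = 9.16e-20), DREB2B rose by a log2 of 4.86 ± 0.11 and DREB2C by 5.12 ± 0.13. CBF3, a cold-response factor, had 47 counts over the 39 °C libraries and 0 over the 23 °C libraries, at least 30.7-fold higher.

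Among 18 genes for reactive oxygen scavenging and signalling, 13 rose and 5 fell (11 and 5 in all 5 scalings). APX2, a cytosolic ascorbate peroxidase, had 218, 204 and 213 CPM at 39 °C and 0 counts in each library at 23 °C, so it was at least 5600-fold higher. APX1, its constitutive relative, had 934, 799 and 873 CPM at 39 °C and 313, 285 and 300 CPM at 23 °C (log2 1.54 ± 0.08). The zinc-finger regulators ZAT6 (log2 5.08 ± 0.10) and ZAT12 (log2 3.54 ± 0.10) and the alternative oxidase AOX1A (log2 4.30 ± 0.07) rose with no overlap. The NADPH oxidases RBOHD, with 7.29, 8.21 and 7.78 CPM at 39 °C and 24.2, 26.6 and 24.2 CPM at 23 °C (log2 -1.69 ± 0.07, adjusted p = 7.16e-09), and RBOHF (log2 -2.08 ± 0.06) fell. The superoxide dismutase genes CSD1 (log2 -2.61 ± 0.21) and CSD2 (log2 -1.13 ± 0.16) fell as well. Of 49 glutathione S-transferases, which conjugate toxic compounds, 24 were higher and 16 lower (13 and 15 in all 5 scalings). The TMM shares were 48.98 and 32.65%, against 38.4 and 41.6% of all genes. GSTU5 had 886, 747 and 783 CPM at 39 °C and 24.0, 25.4 and 25.5 CPM at 23 °C (log2 5.01 ± 0.08).

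Genes of protective sugars and of the osmotic response followed. GOLS1, which starts raffinose synthesis, had 2741, 2415 and 2476 CPM at 39 °C, against 10.5, 9.19 and 9.55 CPM at 23 °C (log2 8.03 ± 0.08, adjusted p = 2.53e-22). MIPS2, the inositol synthase upstream of it, had 218, 230 and 222 CPM at 39 °C and 4.48, 4.92 and 4.26 CPM at 23 °C (log2 5.61 ± 0.06). In the galactinol, raffinose and inositol list 6 of 7 genes rose, and DIN10 fell (log2 -0.67 ± 0.16). In the abscisic acid and osmotic list, 19 of 26 genes rose and 5 fell (13 and 5 in all 5 scalings). The dehydrin gene ERD10 had 1291, 1253 and 1203 CPM at 39 °C and 59.2, 60.4 and 56.8 CPM at 23 °C (log2 4.41 ± 0.04), and COR47, another dehydrin, had a log2 fold change of 3.68 ± 0.02. Of the hormone's 4 receptor genes in the list, 3 fell: PYR1 had 47.6, 42.7 and 41.5 CPM at 39 °C and 88.3, 82.0 and 85.6 CPM at 23 °C (log2 -0.96 ± 0.07), and PYL6 (log2 -2.04 ± 0.25) and PYL5 (log2 -0.77 ± 0.15) fell too. The receptor gene PYL4 was called higher with TMM (log2 0.28 ± 0.09), with a log2 fold change of -0.60 under total counts. Among 61 late embryogenesis abundant proteins, 15 were higher and 32 lower.

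Nuclear genes of the photosynthetic apparatus were higher as a block. All 34 light-harvesting and photosystem genes were called higher, 33 of them in all 5 scalings (PETE1 was the exception), with a median log2 fold change of 2.18, or 1.29 with total counts. Their share of counts was 5.70 to 6.50% at 39 °C and 3.105 to 3.304% at 23 °C. CAB2, an antenna protein of photosystem II, had 1759, 1524 and 1727 CPM at 39 °C and 40.2, 34.0 and 33.4 CPM at 23 °C (log2 5.54 ± 0.11, adjusted p = 2.43e-20). CAB1 and CAB3 are near-identical to it, and CAB1, by far the most abundant of the trio, had 16540, 13180 and 15310 CPM at 39 °C and 7677, 6874 and 7207 CPM at 23 °C (log2 1.05 ± 0.11), so the division of reads bears on the CAB2 value. LHCB2.1 had 460, 471 and 486 CPM at 39 °C and 16.5, 16.9 and 14.66 CPM at 23 °C (log2 4.88 ± 0.07). ELIP1, a light-stress protein that binds pigments, had 414, 417 and 419 CPM at 39 °C and 0.171, 0.470 and 0.423 CPM at 23 °C (log2 10.13 ± 0.34). PSAG and PSAO, subunits of photosystem I, rose by a log2 of 2.46 ± 0.05 and 2.83 ± 0.06.

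The Calvin cycle and chlorophyll synthesis changed less uniformly. All 10 Calvin cycle genes were higher with TMM, yet only 4 in all 5 scalings, and 4 were lower with total counts. RCA, the Rubisco activase, had 5891, 5526 and 5729 CPM at 39 °C and 1082, 1108 and 1080 CPM at 23 °C (log2 2.39 ± 0.03), and RBCS3B, a small subunit of Rubisco with close copies, had a log2 fold change of 2.64 ± 0.03. RBCS1A, the most abundant small subunit gene, had 11700, 10340 and 11250 CPM at 39 °C and 5930, 5963 and 5843 CPM at 23 °C, a log2 fold change of 0.91 ± 0.05 with TMM and of 0.03 with total counts. Of 9 chlorophyll synthesis genes, 7 were higher and none lower (4 in all 5 scalings). CHLH, a subunit of magnesium chelatase, had 1200, 1076 and 1143 CPM at 39 °C and 170, 175 and 168 CPM at 23 °C (log2 2.74 ± 0.05).

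The circadian clock gave a mixed picture, with 11 of 18 genes higher and 2 lower (7 and 2 in all 5 scalings). LNK1, a coactivator of clock genes, had 126, 134 and 130 CPM at 39 °C and 0.854, 0.941 and 0.881 CPM at 23 °C (log2 7.17 ± 0.05, adjusted p = 6.92e-20). GI had 123, 133 and 133 CPM at 39 °C and 13.9, 12.2 and 12.1 CPM at 23 °C (log2 3.35 ± 0.08), and the repressors PRR9 (log2 7.46 ± 0.47), PRR7 (log2 2.33 ± 0.10) and PRR5 (log2 2.26 ± 0.07) rose as well. TOC1, an evening gene, had 83.7, 105.3 and 104.3 CPM at 39 °C and 264, 241 and 250 CPM at 23 °C (log2 -1.36 ± 0.11), and ELF3, of the evening complex, fell by 0.72 on the log2 scale. The sources used here do not give the time of day of each harvest, and whether it was the same in both groups was not tested. Among 14 genes of light and warmth signalling, 6 were higher and 7 lower (42.9 and 50%, against 38.4 and 41.6% of all genes). HY5, which promotes light responses, rose (log2 2.56 ± 0.10), while PIF1 had 4.62, 3.3 and 5.31 CPM at 39 °C and 16.73, 17.62 and 17.37 CPM at 23 °C (log2 -1.97 ± 0.20).

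Most genes of auxin transport and response fell. In the auxin list, 16 of 22 genes fell and 3 rose (16 and 1 in all 5 scalings), with a median log2 fold change of -1.93. IAA3, a repressor of auxin responses, had 0.783, 1.17 and 1.56 CPM at 39 °C and 34.06, 30.03 and 33.09 CPM at 23 °C (log2 -4.77 ± 0.27, adjusted p = 5.79e-16). The efflux carrier PIN3 had 6.97, 10.3 and 7.78 CPM at 39 °C, against 83.9, 78.3 and 81.0 CPM at 23 °C (log2 -3.27 ± 0.17), and the influx carrier AUX1 had 16.5, 18.1 and 18.7 CPM at 39 °C and 90.56, 90.75 and 84.6 CPM at 23 °C (log2 -2.31 ± 0.06). For all 3 genes the highest 39 °C library lay far below the lowest 23 °C library. PIN4 (log2 -2.50 ± 0.09), PIN7 (log2 -2.10 ± 0.04) and LAX3 (log2 -3.27 ± 0.16) fell too, and GH3.3, an auxin-conjugating enzyme, rose (log2 1.26 ± 0.20). Of 55 small auxin-up RNA genes (SAUR), 47 fell and 3 rose, with a median log2 fold change of -2.68, or -2.57 when members with 3 or fewer counts in a group are set at their bound. AT4G34760 of this family had 0.940, 0.367 and 0.566 CPM at 39 °C and 11.9, 12.6 and 12.7 CPM at 23 °C.

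Gibberellin, brassinosteroid and cytokinin genes fell in 13 of 15 cases, all 13 in all 5 scalings, and 1 rose with TMM. GAI, a DELLA repressor of gibberellin responses, had 12.0, 14.3 and 12.9 CPM at 39 °C and 63.0, 61.6 and 58.9 CPM at 23 °C (log2 -2.22 ± 0.08), and ARR5, a cytokinin response regulator, fell by 3.12 on the log2 scale. In the ethylene list 8 of 12 genes rose and 3 fell (3 and 3 in all 5 scalings), and in the jasmonate list 9 of 14 rose and 2 fell (6 and 2). AOC2, an enzyme of jasmonate synthesis, had 61.3, 59.0 and 55.2 CPM at 39 °C and 4.097, 4.813 and 5.567 CPM at 23 °C (log2 3.59 ± 0.13).

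Cell wall families fell. Xyloglucan endotransglucosylases, which loosen and rejoin wall polymers, were lower in 23 of 26 cases and higher in none. XTH6 had 19, 14 and 16 CPM at 39 °C and 175, 166 and 176 CPM at 23 °C (log2 -3.42 ± 0.12), and XTH16 had a log2 fold change of -3.48 ± 0.05. Of 22 expansins, 17 fell and 2 rose. EXPA1 had 1.49, 2.05 and 2.33 CPM at 39 °C and 47.3, 51.5 and 48.1 CPM at 23 °C (log2 -4.63 ± 0.19, adjusted p = 4.02e-17), whereas EXPA13 rose (log2 2.33 ± 0.09). Genes with extensin in their description, among them the extensin-like receptor kinase gene PERK10, were lower in 28 of 43 cases and higher in 3. Class III peroxidases (44 of 53 lower, 5 higher) showed the same direction for most members. So did genes described as pectin methylesterases or as their inhibitors, which were counted together (34 of 52 lower, 9 higher). The pectin methylesterase PME5, among the 15 largest decreases, had 1.96, 1.91 and 2.55 CPM at 39 °C and 66.4, 65.8 and 65.8 CPM at 23 °C (log2 -4.94 ± 0.13). Also among these 15 were BT2, a scaffold protein that responds to nutrients, with 23.4, 24.6 and 21.5 CPM at 39 °C and 646, 554 and 618 CPM at 23 °C (log2 -4.71 ± 0.09), the brassinosteroid-responsive EXO (log2 -4.83 ± 0.23), the transcription factor NAC1 (log2 -5.12 ± 0.23) and the RING-finger gene ATL8 (log2 -5.03 ± 0.39).

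Immune receptors and defence regulators were mostly lower. Of 218 receptor-like kinases, 172 fell and 22 rose (172 and 4 in all 5 scalings), with a median log2 fold change of -1.33. CRK40 had 2.04, 1.69 and 2.12 CPM at 39 °C and 27.7, 26.2 and 28.2 CPM at 23 °C (log2 -3.81 ± 0.10). Of 132 NLR immune receptors, which detect pathogen effectors inside the cell, 101 fell and 12 rose (101 and 1 in all 5 scalings), and AT5G40910 had 7.60, 10.2 and 7.57 CPM at 39 °C and 58.8, 62.5 and 60.7 CPM at 23 °C (log2 -2.84 ± 0.14). AT1G66090 went the other way, with a log2 fold change of 3.08 ± 0.13. In the salicylic acid and immunity list, 13 of 20 genes fell and 2 rose. FLS2, the flagellin receptor, had 3.60, 3.15 and 2.26 CPM at 39 °C and 28.6, 25.6 and 27.2 CPM at 23 °C (log2 -3.18 ± 0.20, adjusted p = 2.01e-13), while NPR1, a salicylic acid receptor, rose (log2 1.44 ± 0.06). Glucosinolate genes, which make defence compounds of this plant family, fell in 8 of 10 cases. CYP79F2 had 0.862, 1.69 and 0.990 CPM at 39 °C and 23.2, 27.2 and 26.8 CPM at 23 °C (log2 -4.44 ± 0.28), and the regulator MYB28 fell by 3.3 on the log2 scale.

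**Figure D5:**
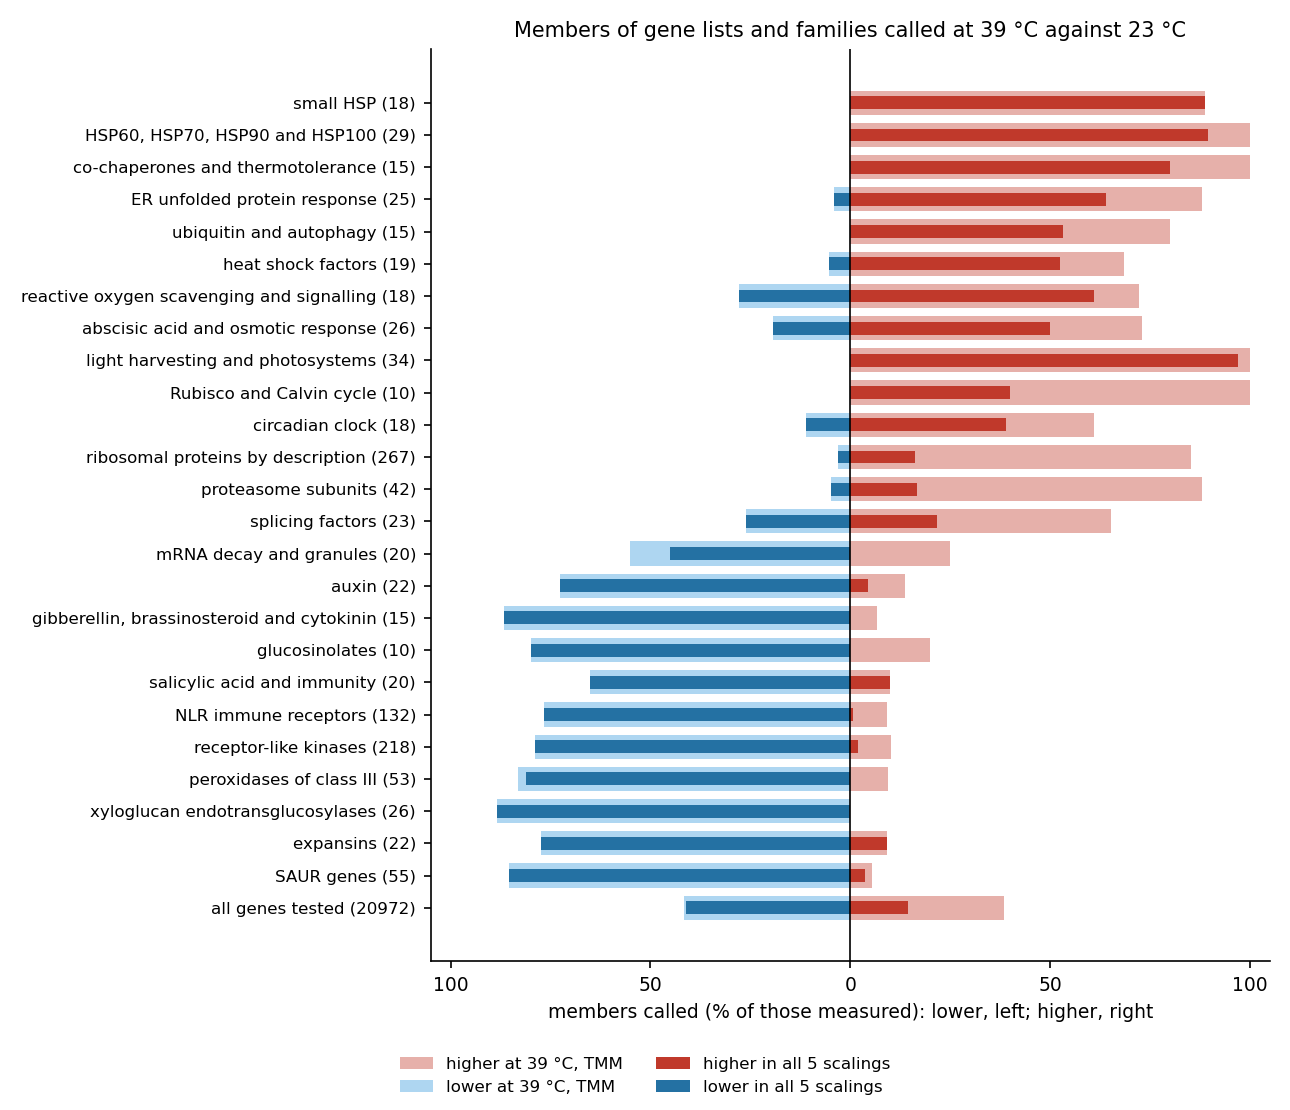
Percent of the measured members (their number in brackets) of 25 gene lists and families called higher (red, right) or lower (blue, left) at 39 °C, with all tested genes in the bottom row. Pale bars are TMM calls and dark bars are calls alike in all 5 scalings: chaperones and light harvesting keep nearly full dark bars to the right, growth and immune families to the left, and the bars of ribosomal proteins and proteasome subunits are mostly pale. For all tested genes the dark bar to the left is nearly full too (40.98 of 41.62%), and that to the right is not (14.54 of 38.45%).

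For the machinery of gene expression, many directions depended on the scaling. Of 267 ribosomal protein genes, 228 were higher and 8 lower with TMM, 43 and 8 were called alike in all 5 scalings, and with total counts 159 were lower. In translation initiation and elongation, 11 of 14 were higher and 1 lower (4 and 1 in all 5). EIF4E, the cap-binding factor, rose (log2 1.43 ± 0.07), and EIF3A fell (log2 -0.70 ± 0.05). Genes used to normalise assays moved with them: 9 of 10 measured reference genes were higher with TMM, but 2 in all 5 scalings, and 7 were lower with total counts. The reference-gene scaling sets the libraries level on such genes, and the list's median log2 fold change was 0.04 there. The count in all 5 scalings is therefore no independent check for this list. GAPC1 had 1434, 1337 and 1425 CPM at 39 °C and 248, 249 and 243 CPM at 23 °C (log2 2.50 ± 0.03) and ACT7 changed by a log2 of 1.47 ± 0.03, both higher in all 5. ACT2, in contrast, had a log2 fold change of 0.51 ± 0.04 with TMM and of -0.37 with total counts.

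Splicing and decay factors held a few large changes among many small ones. STA1, a pre-mRNA splicing factor needed for heat tolerance, had 2912, 2549 and 2809 CPM at 39 °C and 90.0, 84.6 and 88.1 CPM at 23 °C (log2 4.98 ± 0.06, adjusted p = 1.11e-20). SR45A, a serine/arginine-rich-like factor, had 1109, 1043 and 1092 CPM at 39 °C and 46.1, 44.1 and 44.0 CPM at 23 °C (log2 4.6 ± 0.03), and SR30 rose by 1.86 ± 0.05. Of 23 splicing factors, 15 were higher and 6 lower, or 5 and 6 in all 5 scalings, and SR34B fell (log2 -1.22 ± 0.13). In mRNA decay and granules, 5 of 20 were higher and 11 lower, or 0 and 9 in all 5. TZF1, a zinc-finger protein of granules, had 10.9, 15.8 and 17.1 CPM at 39 °C and 128, 108 and 116 CPM at 23 °C (log2 -3.0 ± 0.21), and the decapping activator DCP5 fell by 0.91 on the log2 scale. In DNA replication and mitosis, 2 of 19 were higher and 9 lower, or 1 and 8 in all 5.

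Smaller groups gave a mixed picture. Of 11 membrane lipid enzymes, 9 rose and 1 fell (5 and 1 in all 5 scalings), and DGD1, which makes the galactolipid of chloroplast membranes, had 88.2, 89.6 and 84.6 CPM at 39 °C and 14.3, 17.22 and 15.43 CPM at 23 °C (log2 2.48 ± 0.08). Of 18 aquaporins, 6 rose and 10 fell (2 and 10 in all 5). The TMM shares were 33.3 and 55.6%, against 38.4 and 41.6% of all genes. The plasma membrane water channel PIP2;3 had 428, 391 and 400 CPM at 39 °C and 31.88, 23.52 and 28.58 CPM at 23 °C (log2 3.86 ± 0.13), while the vacuolar TIP1;2 fell (log2 -1.97 ± 0.11). In the calcium and touch list, 4 of 9 rose and 5 fell (44.4 and 55.6%). The calmodulin-like gene TCH3 rose (log2 2.92 ± 0.08), and the wall enzyme gene TCH4 fell (log2 -2.91 ± 0.15). Of 42 genes with a histone in their description, 19 rose and 19 fell with TMM, and 8 and 19 in all 5 scalings. The TMM shares, 45.2% each, lay near those of all genes (38.4 and 41.6%). The histone gene AT1G75600 had 40.0, 37.3 and 37.8 CPM at 39 °C and 0.213, 0.145 and 0.176 CPM at 23 °C (log2 7.72 ± 0.11). Flavonoid genes were higher in 5 of 8 cases and lower in none, and cuticular wax genes lower in 5 of 6 and higher in none.

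Transcription factor families other than the heat shock factors held more members lower than higher, as did all tested genes (41.6% lower, 38.4% higher). Of 95 bHLH genes, 64 were lower and 14 higher, of 122 MYB genes 64 and 24, of 65 ERF and AP2 genes 38 and 15, of 54 WRKY genes 38 and 7, and of 79 NAC genes 38 and 23. The NAC shares, 48.1% lower and 29.1% higher, lay nearer those of all genes than the WRKY shares, 70.4 and 13.0%. The shares of bZIP genes lay near those of all genes (42.9% lower, 34.7% higher). Cytochromes P450 (112 of 171 lower, 29 higher) and pentatricopeptide repeat proteins, which process organelle RNA (146 of 253 lower, 49 higher), leaned the same way. Across all genes the direction went with the level. In the lowest quartile of mean expression over the 6 libraries, 17.2% of genes were higher and 53.4% lower, and in the highest quartile 65.6% were higher and 22.9% lower. With all 5 scalings, 1281 genes of the highest quartile were higher and 1173 lower, against 529 and 2778 in the lowest. The mean includes both groups and the small counts of the lowest quartile limit its calls, so these shares describe the tables rather than test a relation.

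Genes of the organelle genomes split. Of 32 measured mitochondrion-encoded genes, 31 were higher in all 5 scalings and none lower, with a median log2 fold change of 4.45, or 4.08 with 6 members at their bound. The gene of a cytochrome oxidase subunit, cox1, had 18.1, 20.8 and 16.1 CPM at 39 °C and 0.384, 0.724 and 0.634 CPM at 23 °C (log2 4.94 ± 0.26), and it was picked after its values were seen. The summed share of mitochondrion-encoded genes stayed small, 0.0843 to 0.125% of counts at 39 °C and 0.0176 to 0.0232% at 23 °C. Most of this share came from the genes ATMG00020 and ATMG01390. They had 20757 and 27247 counts over the 39 °C libraries, against 3239 and 7561 over the 23 °C libraries. The second 39 °C library, highest in this share, was the highest for cox1 too. Of 39 chloroplast-encoded genes, 12 were higher and 11 lower (5 and 11 in all 5). The TMM shares were 30.8 and 28.2%, against 38.4 and 41.6% of all genes. The labels call the libraries mRNA-Seq, which captures few organelle transcripts, and how far these levels follow the capture was not tested.

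Long non-coding RNA genes held 251 of 564 higher and 153 lower (132 and 150 in all 5 scalings). The TMM shares were 44.5 and 27.1%, against 38.4 and 41.6% of all genes. Of the 564 genes, 493 overlap a protein-coding gene on the opposite strand, and 202 of the overlapping ones were higher by a log2 of at least 1. For 93 of those, the coding partner was also higher by a log2 of at least 1. AT3G07365, a plus-strand gene at chr3:16984335-16984787 (TAIR10.1), was picked after its values were seen, lies wholly opposite HSP17.4 and averaged 1185 CPM at 39 °C and 0.0829 CPM at 23 °C, where HSP17.4 averaged 11400 CPM at 39 °C. The libraries were strand-specific, but the sources used here do not give the strand setting of the counting, so reads of such a gene and of its partner cannot be told apart. Among the 66 lncRNA genes with no overlap, 15 were higher and 40 lower.

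Markers of organs moved with these groups. Of 8 root markers none was higher and 6 were lower at 39 °C, and their summed share was 0.0228 to 0.0244% of counts at 39 °C and 0.157 to 0.164% at 23 °C. Most of this share was the gene PYK10, with 11812 counts over the 39 °C libraries and 90628 over the 23 °C libraries. The share of the shoot markers was 0.9781 to 1.0953% at 39 °C and 0.848 to 0.884% at 23 °C. It was mostly RBCS1A, with 449481 counts over the 39 °C libraries and 469580 over the 23 °C libraries. PYK10, the beta-glucosidase of root ER bodies, had 289, 286 and 299 CPM at 39 °C and 1128, 1142 and 1150 CPM at 23 °C (log2 -1.97 ± 0.02). COBL9, of root hairs, had a log2 fold change of -3.93 ± 0.15. Of 5 shoot markers 2 were higher and 1 was lower: CAB3 rose (log2 3.08 ± 0.17), and FAMA, of guard cells, fell (log2 -1.84 ± 0.11). Of 3 vasculature markers, 2 were higher and 1 was lower with TMM. SUC2, of phloem companion cells, fell (log2 -2.11 ± 0.09), while XCP1, of the xylem, and APL, of the phloem, had log2 fold changes of 0.50 and 0.65 with TMM and of -0.38 and -0.23 with total counts. In RNA of whole seedlings, fewer cells of a type and less RNA per cell cannot be told apart, and the part of the root's share in the lower auxin, wall and peroxidase genes was not tested.

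Heat was set against salt in wild type in a fit of 12 Col-0 libraries, where each stress had its own control. The responses differed in 15850 of 21469 genes (73.8%). Of the genes measured in both, 7126 were called in the same direction, 4471 in opposite directions, 5113 only with heat and 2569 only with salt. These are TMM calls, and the split is not given for the other scalings. With total counts, 2855 genes called higher with heat under TMM were called lower. Chaperones differed between the stresses: all 29 members of the HSP60 to HSP100 list, all 15 co-chaperones and all 18 small HSPs had a higher fold change with heat than with salt. HSP101 rose by a log2 of 10.21 with heat and by 0.22 with salt, and BIP2 rose by 4.58 with heat and fell by 1.62 with salt. With TMM, ribosomal protein genes were 228 higher and 8 lower with heat, against 31 higher and 206 lower with salt. Of 267, 245 differed in the direction of heat. With total counts the heat calls were 43 higher and 159 lower, so the direction with heat depended on the scaling. In the abscisic acid and osmotic list, 11 had a higher and 13 a lower change with heat than with salt, and in the jasmonate list 3 and 10. GOLS1 rose by a log2 of 8.03 with heat and 1.48 with salt. Of 132 NLR receptors, 46 were higher and 38 lower with salt, and 88 had a lower change with heat.

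The same heat treatment in the exa1-1 mutant line called 16819 genes, 8047 higher and 8772 lower. The wild-type response differed from that of the mutant in 1687 genes (8.04%), 914 with a higher change in exa1-1 and 773 with a lower one, and the difference reached a log2 of 1 in 95 and 163 of these. This count fell to 1092 without the first 23 °C library of wild type and to 965 without the third. EXA1, the gene disrupted in the mutant, had 171, 189 and 178 CPM at 39 °C and 167, 158 and 162 CPM at 23 °C in wild type and was not called (log2 0.14, adjusted p = 0.102), and this log2 fold change was -0.73 with total counts. Within the lists, 5 of 15 co-chaperones, 5 of 19 heat shock factors and 6 of 29 HSP60 to HSP100 genes had a higher change in exa1-1, and 1 of those 29 (MTHSC70-1, difference -0.45) and 6 of 26 abscisic acid genes had a lower one. FES1A rose by 1.15 more on the log2 scale in exa1-1 (adjusted p = 1.86e-05, edgeR quasi-likelihood test), and the osmotic gene RD29A, up by a log2 of 6.10 in wild type, rose by less in the mutant (difference -1.53).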

How the data were processed

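Reads were aligned with HISAT2 2.0.4 and counted with HTSeq 0.6.1p1, per the submitters' processing notes, and the sources used here do not give the strand setting. The authors deposited whole-number read counts per gene for 24 libraries, and FPKM values (fragments scaled by gene length and depth) for the same libraries. The main test was edgeR 4.0.16 (R 4.3.3) on the counts of the 12 libraries of the heat series: TMM scaling, filterByExpr, the quasi-likelihood F test of Col-0 at 39 °C against Col-0 at 23 °C, and Benjamini-Hochberg adjustment over 20972 genes. Heat was set against salt in a second fit over the 12 Col-0 libraries. Values after ± are SEs of the log2 fold change from the log2 CPM of 3 libraries per group. Intervals and floors (3 counts over a group) cover counting error only. The scripts were tested on simulated data.

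Genes were named by rule: 15 largest increases and decreases, 10 highest by FPKM, up to 6 per list and 3 per family by adjusted p, members against their list's direction, the reference genes and EXA1. The members and the 40 gene lists were chosen with earlier results of these data known. Where a list's name for a gene was not in the reference, the member was kept if its symbol or description matched, and 2 members were left out. Families follow gene descriptions. Promoters come from RefSeq's TAIR10.1. Alternatives were other scalings, filters, DESeq2 1.42.0, limma 3.58.1 on log2(FPKM + 1) and log2(FPKM + 0.1), a replicate block and each library left out. 1 gene's result is not reported here.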

Additional observations from a re-analysis of the deposited data

Results flagged for a closer look

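The heat response of these genes differed between exa1-1 and wild type in a test of the difference itself (the interaction term of the heat-series fit, edgeR quasi-likelihood test, adjusted p under 0.05 over all genes). Values are log2 fold changes in exa1-1 minus those in wild type. Among genes higher at 39 °C in wild type, the change was larger in exa1-1 by 1.51 for HSP17.4, 1.41 for ZAT12, 1.35 for AT1G66090, 1.21 for HSFA2, 1.15 for FES1A, 0.90 for HSFA7A, 0.85 for HSP70T-2, 0.80 for ERDJ3A, 0.74 for GOLS1, 0.74 for GSTU5, 0.69 for HOP3, 0.65 for DREB2C, 0.55 for PRR7, 0.47 for HSP90.1, 0.46 for BZIP28, 0.43 for HSP101, 0.43 for SR30, 0.41 for MBF1C, 0.39 for HSFB1, 0.34 for SR45A and 0.30 for CDC48A. It was smaller in exa1-1, with differences of -0.32 for BIP2, -0.45 for MTHSC70-1, -0.49 for PSAO, -0.52 for TCH3, -0.69 for LHCB2.1, -0.70 for AOX1A, -0.74 for HY5, -0.96 for PRR5 and -1.53 for RD29A. Among genes lower at 39 °C in wild type, the decrease was less deep in exa1-1, with differences of 0.83 for XTH16, 0.73 for LAX3, 0.67 for SR34B, 0.65 for PME5, 0.61 for XTH6, 0.53 for RBOHF, 0.46 for GAI, 0.32 for AUX1 and 0.30 for EIF3A. It was deeper in exa1-1, with differences of -0.65 for TZF1, -0.67 for BT2 and -1.09 for CSD2.

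EXA1 differed by -0.95 (adjusted p = 0.00016, edgeR quasi-likelihood test), with a log2 fold change of -0.81 in exa1-1 and 0.14 in wild type. APX2 differed by -3.67, but it had 0 counts in every wild-type library at 23 °C, so the size of this difference depends on the prior count. HSP17.4 and HSFA2 were near the floor in wild type at 23 °C, so the sizes of their differences are uncertain. Some differences lay close to the threshold: BIP2 (adjusted p = 0.0495), AUX1 (0.0487), DREB2C (0.0457) and HSP101 (0.0433), by the same edgeR quasi-likelihood test. The number of genes with such a difference depended on single libraries of wild type at 23 °C. Whether the genes named here stay called without those libraries was not tested.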

How the results depend on the processing

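Directions were limited by scaling. With total counts, 3049 genes were higher and 15202 lower, or 1400 and 10125 with a log2 change of at least 1. The reference genes gave 4903 higher, 2074 of them by at least 1. limma on log2(FPKM + 1) gave 2977 higher (1111 by at least 1) and 14186 lower, and on log2(FPKM + 0.1) 2967 higher (1308 by at least 1) and 14146 lower (9009 by at least 1). Total counts outside the chaperone lists, chosen after seeing the data, gave 4380 higher (1868 by at least 1) and 13146 lower (8265 by at least 1). Of 70 lists and families, 32 had more members higher than lower with TMM, against 13 with total counts and 13 with each FPKM setting. Filters, DESeq2, RLE, all 24 libraries, and the 6 wild-type libraries alone kept these counts within 1.5 times.

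7 named genes changed sign, and the cause was not tested. EXA1 was at -0.73 with total counts, -0.34 with the reference genes, -0.71 and -0.74 with FPKM (pseudocounts 1 and 0.1) and -0.44 with total counts outside the chaperone lists. ACT2 was at -0.37 with total counts, -0.37 with both FPKM settings and -0.081 outside the chaperone lists. HSP70-14 was at -0.36 with total counts, -0.35 and -0.36 with FPKM and -0.067 outside the chaperone lists. PETE1 was at -0.085 with total counts and at -0.0876 and -0.0885 with FPKM. PYL4 was at -0.60 with total counts, -0.21 with the reference genes, -0.595 and -0.60 with FPKM and -0.31 outside the chaperone lists. XCP1 was at -0.38 with total counts, -0.36 and -0.37 with FPKM and -0.085 outside the chaperone lists. APL was at -0.23 with total counts and at -0.21 and -0.23 with FPKM.

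Leaving out each library in turn gave 16246 to 16482 genes called, 7738 to 7919 higher and 8389 to 8641 lower, 3544 to 3657 and 5011 to 5237 by at least 1, and 31 to 33 lists. The difference between exa1-1 and wild type ranged from 965 to 1596 genes, with 1092 without the first 23 °C library of wild type and 965 without the third, and that between heat and salt from 15381 to 15615. Elements of 2 units were in 19.3% of all promoters and 40.1% of those of genes with a log2 change of at least 6. As mean shares of summed FPKM, small HSPs made up 12.6% at 39 °C and 0.00773% at 23 °C, the chaperone lists 19.7 and 0.437%, and light harvesting 8.08 and 4.52%.

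Same-numbered libraries deviated from their group means with correlations of -0.022, 0.028 and 0.074, against -0.084 to 0.046 for differently numbered ones. The main test did not pair libraries by number. Whether same-numbered libraries shared a batch or harvest was not tested. With the replicate block, 16397 genes were called, 7817 higher and 8580 lower, against 1651 for the difference from exa1-1 and 15768 for that from salt.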
